A study of Mus musculus with 27 samples.

Results

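The nuclear factor I (NFI) family of the mouse comprises the transcription factor genes Nfia, Nfib, Nfic and Nfix. The members were chosen by symbol, which gave 4 of the 51906 genes in the RNA-seq count table and 4 of the 32285 genes in each single-cell RNA-sequencing (scRNA-seq) matrix. NFI proteins bind DNA as dimers through a conserved N-terminal domain, with a preference for the palindrome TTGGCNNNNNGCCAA, and act as activators or repressors depending on the promoter. In hair follicle stem cells (HFSCs), NFIB and NFIX are known to keep stem cell enhancers accessible, and NFIB is also known for restraining endothelin 2 (Edn2), a signal to neighbouring melanocyte stem cells. The study placed HFSCs in conditions that either maintain or resolve lineage plasticity, the wound-like state in which stem cells co-express regulators of the follicle and of the epidermis.

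For RNA-seq, HFSCs came from the resting (telogen, P55) skin of 2 wild-type mice and 2 mice labelled Rxra cKO, and each culture was grown either with fetal bovine serum (FBS) or with all-trans-retinoic acid and an inhibitor of protein kinase C (atRA+PKCi), giving 4 groups of 2 libraries. Rxra encodes a retinoid X receptor, the partner of the retinoic acid receptors. According to the methods of the study, the cKO mice carried Sox9-CreER, floxed Rxra and a Cre-dependent YFP reporter, serum was replaced by B-27 where atRA+PKCi was given, and lines were started on mitomycin-treated feeder cells. Loss of serum and the added compounds therefore cannot be told apart, and whether the wild-type mice carried Cre was not given in the sources used here. For scRNA-seq, cells came from the back skin of 2 wild-type mice in late hair growth (anagen VI, P32), and hashtagged cultures of HFSCs from the same 2 mice were pooled over 7 conditions. The RNA-seq libraries held 25150265 to 35879777 estimated counts, and each NFI gene had at least 298 of them in every library. With 2 mice per group, p-values describe the spread between 2 cultures, and the fit shares its estimate of the spread over all 8 libraries.

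The members lie on 3 chromosomes of the GRCm38 build. Nfia (ENSMUSG00000028565, chr4:97772734-98118874, forward strand) and Nfib (ENSMUSG00000008575, chr4:82290173-82705750, reverse strand) share chromosome 4, Nfic (ENSMUSG00000055053) lies at chr10:81396186-81455635 and Nfix (ENSMUSG00000001911) at chr8:84699876-84800344, both on the reverse strand. Their merged exons, untranslated regions included, cover 10891 bases for Nfia, 14957 for Nfib, 6630 for Nfic and 7351 for Nfix. The promoter windows of RefSeq (GRCm38.p6, 250 bases before an annotated transcription start) are shown because Nfia and Nfix were higher and Nfic was not called higher in atRA+PKCi. For Nfib, which was also higher, no window was found in the sources used here. Letters in capitals mark the core of the NFI palindrome (TTGGC) and the core bound by retinoid receptors (AGGTCA), on either strand. The Nfix window is 1 of 4 for this gene and was the window with both cores, which start 175 and 70 bases before the start site. RefSeq places the Nfia start upstream of the GENCODE gene body given above, within the span of E130114P18Rik.

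Nfia, chr4:97581693-97581942, forward strand: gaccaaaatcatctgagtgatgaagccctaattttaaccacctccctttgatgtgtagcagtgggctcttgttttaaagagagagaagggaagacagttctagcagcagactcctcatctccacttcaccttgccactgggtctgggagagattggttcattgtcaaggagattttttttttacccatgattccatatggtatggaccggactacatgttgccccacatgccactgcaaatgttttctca
Nfic, chr10:81427174-81427423, reverse strand: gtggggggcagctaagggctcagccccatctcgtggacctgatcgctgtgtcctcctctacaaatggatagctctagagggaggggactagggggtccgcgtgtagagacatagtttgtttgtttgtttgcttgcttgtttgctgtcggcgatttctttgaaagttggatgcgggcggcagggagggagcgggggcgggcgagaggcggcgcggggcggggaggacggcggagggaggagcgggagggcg
Nfix, chr8:84775829-84776078, reverse strand: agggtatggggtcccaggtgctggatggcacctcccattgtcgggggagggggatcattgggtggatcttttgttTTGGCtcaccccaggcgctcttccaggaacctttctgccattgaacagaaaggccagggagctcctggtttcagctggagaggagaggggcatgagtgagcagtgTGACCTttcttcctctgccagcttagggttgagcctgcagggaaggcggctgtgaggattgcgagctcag

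Of 32536 promoter windows of this length, 41.6% held TTGGC and 14% held AGGTCA on at least 1 strand, so neither core sets the Nfix window apart. The whole palindrome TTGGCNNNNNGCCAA was in 0.0369% of windows and in none of the 6 windows of Nfia, Nfic and Nfix, and the direct repeat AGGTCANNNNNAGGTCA was in 0.00922% of windows and likewise in none of the 6. These matches describe letters only, and binding at these sites was not analysed here.

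The deleted gene was examined first as a check of the labels. Rxra stood at 149 and 122 CPM (estimated counts scaled by the library's effective total, the unit used throughout for RNA-seq) in the wild-type FBS libraries and at 97.2 and 95.7 CPM in the libraries labelled Rxra cKO in FBS, a lower level without overlap (log2 fold change -0.49 ± 0.09 SE, edgeR quasi-likelihood test, adjusted p = 0.00264). In atRA+PKCi it stood at 147 and 143 CPM in wild-type and at 148 and 145 CPM in the libraries labelled Rxra cKO (log2 fold change 0.01, adjusted p = 0.927), and these groups overlapped. The gene total includes exons that the floxed allele retains, and which exons are removed was not given in the sources used here, so every direction between genotypes below rests on the labels.

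In atRA+PKCi, 3 of the 4 NFI genes were higher than in FBS in each genotype. In wild-type HFSCs, Nfib and Nfix were 1.75-fold and 1.74-fold higher than in FBS, and Nfia was 1.35-fold higher, a difference that was lost once transcript length was taken into account (log2 0.09, adjusted p = 0.759, edgeR). In the libraries labelled Rxra cKO, Nfix was 2.59-fold, Nfia 1.76-fold and Nfib 1.61-fold higher. Nfic was 1.44-fold and 1.42-fold higher in the respective genotypes and did not pass the test in either. Higher levels in atRA+PKCi were called for 27.2% and lower levels for 26.6% of all 15965 genes tested in wild-type. The shares were 20.8% and 22.2% in the libraries labelled Rxra cKO, so that changes with medium were common among all genes.

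Nfib, the member with the steadiest replicates, measured 42.2 and 39.7 CPM in FBS and 74.2 and 68.8 CPM in atRA+PKCi for wild-type HFSCs. The libraries labelled Rxra cKO held 41.0 and 39.0 CPM in FBS and 64.0 and 64.9 CPM in atRA+PKCi. All 4 atRA+PKCi libraries lay above all 4 FBS libraries, with a log2 difference of 0.80 ± 0.07 SE in wild-type (adjusted p = 2.03e-05) and 0.69 ± 0.07 SE in the libraries labelled Rxra cKO (adjusted p = 9.15e-05, edgeR quasi-likelihood test).

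Nfix, which maintains HFSC identity together with Nfib, measured 30.7 and 20.0 CPM in FBS and 47.8 and 40.6 CPM in atRA+PKCi for wild-type HFSCs. For the label Rxra cKO the values were 24.8 and 22.5 CPM in FBS and 58.5 and 64.2 CPM in atRA+PKCi, the latter being the highest values of the 8 libraries. The groups did not overlap in either genotype, and the log2 difference was 0.80 ± 0.18 SE in wild-type (adjusted p = 0.00434) and 1.37 ± 0.17 SE in the libraries labelled Rxra cKO (adjusted p = 0.00032, edgeR quasi-likelihood test). The wild-type difference ranged from 0.52 to 1.14 as each of the 8 libraries was left out, and it passed the test each time.

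Nfia, best known as a switch factor in glial development, was the member with the lowest level per length, at 15.1 and 12.4 CPM in FBS and 19.7 and 17.6 CPM in atRA+PKCi for wild-type HFSCs. Under the label Rxra cKO it measured 11.2 and 9.65 CPM in FBS and 19.0 and 17.6 CPM in atRA+PKCi. The atRA+PKCi libraries again lay above the FBS libraries in each genotype, by 0.44 ± 0.13 SE on the log2 scale in wild-type (adjusted p = 0.0169) and by 0.82 ± 0.13 SE in the libraries labelled Rxra cKO (adjusted p = 0.00102, edgeR quasi-likelihood test). The difference in wild-type was not called when FBS replicate 2 (0.30, adjusted p = 0.0930) or atRA+PKCi replicate 1 (0.33, adjusted p = 0.111) of that genotype was left out.

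Nfic, known for its role in tooth root formation, measured 30.2 and 17.6 CPM in FBS and 38.1 and 30.8 CPM in atRA+PKCi for wild-type HFSCs. Libraries labelled Rxra cKO held 25.7 and 22.9 CPM in FBS and 33.3 and 36.0 CPM in atRA+PKCi. Although the groups did not overlap, the wild-type FBS replicates differed widely, and the log2 differences of 0.53 ± 0.22 SE (adjusted p = 0.0679) and 0.51 ± 0.21 SE (adjusted p = 0.0862, edgeR quasi-likelihood test) were not called. With the mouse as a replicate block, both passed (0.56 with adjusted p = 0.00932, and 0.51 with adjusted p = 0.0175), and DESeq2 also called both. The wild-type value was 0.97 without wild-type FBS replicate 1 and 0.18 without wild-type FBS replicate 2. With each library left out in turn, the lack of a call held in 7 of 8 fits in wild-type. It held in 6 of 8 fits in the libraries labelled Rxra cKO.

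**Figure D1:**
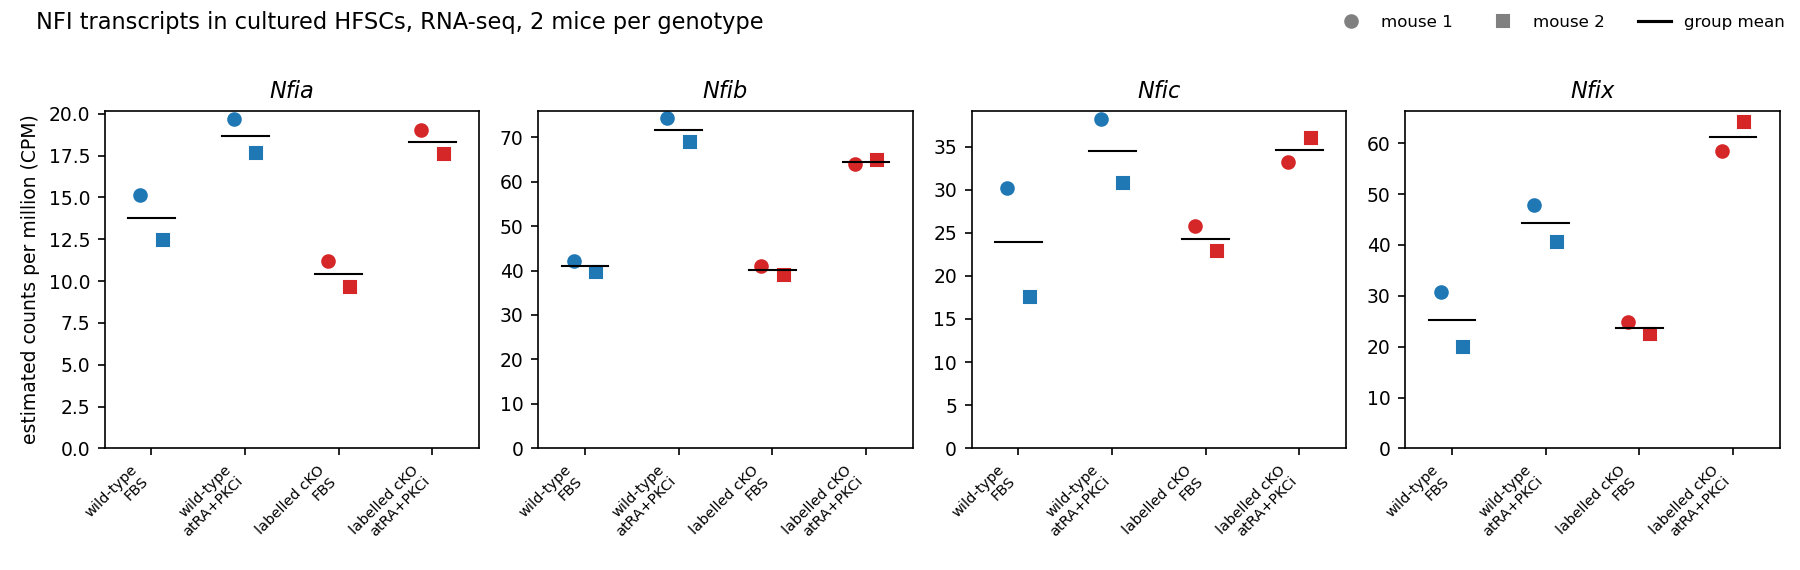
NFI transcripts in each RNA-seq library, as CPM on axes that start at 0, by genotype label and medium, with circles for mouse 1, squares for mouse 2 and lines for the mean of 2 libraries. For each of the 4 genes, the atRA+PKCi libraries lie above the FBS libraries of the same genotype label, and Nfix is highest in the libraries labelled Rxra cKO in atRA+PKCi, at 58.5 and 64.2 CPM.

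Salmon estimates counts per transcript, and a shift between short and long isoforms changes a gene's count at equal numbers of molecules. The authors' table of normalized counts corrects for this, and the ratio of the deposited count to that value gives a length factor per gene and library. Relative to the median gene of its library, the factor of Nfib ranged over the 8 libraries from 0.986 to 1.01 and that of Nfix from 0.961 to 1.05. The factor of Nfia ranged from 0.835 to 1.44 and that of Nfic from 0.778 to 1.27, a wider range than in all but 7.56% and 8.63% of 14945 genes, respectively. With these factors as offsets, an alternative chosen after seeing the data, Nfib and Nfix kept their differences in wild-type (log2 0.79, adjusted p = 0.000121, and log2 0.76, adjusted p = 0.0129, edgeR) and in the libraries labelled Rxra cKO (log2 0.72 and 1.41). Nfia kept its difference in the libraries labelled Rxra cKO (0.76, adjusted p = 0.0222) but fell to 0.09 ± 0.21 SE in wild-type (adjusted p = 0.759). In wild-type cultures, the authors' normalized counts of Nfia were 525 and 349 with FBS and 406 and 523 with atRA+PKCi, values that overlap. Nfic stood at 0.33 and 0.15 with these offsets, with adjusted p = 0.324 and 0.681.

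Between genotypes, a single NFI difference was called. In FBS, where 20.5% of all genes tested were called lower in the libraries labelled Rxra cKO and 22.3% higher, Nfia was lower (log2 fold change -0.41 ± 0.13 SE, adjusted p = 0.0322, edgeR quasi-likelihood test), at 11.2 and 9.65 CPM against 15.1 and 12.4 CPM. The 2 groups did not overlap, but the call was lost with DESeq2 (adjusted p = 0.0594), in a fit of the 4 FBS libraries alone (adjusted p = 0.0774) and with the length factors (-0.37, adjusted p = 0.219). With each library left out in turn, the difference ranged from -0.54 to -0.26, and the call held in 5 of 8 fits. Nfib, Nfic and Nfix differed between genotypes in FBS by -0.03, 0.02 and -0.10 on the log2 scale (adjusted p of 0.739, 0.950 and 0.690). For Nfix and Nfic this rests on the scattered wild-type FBS cultures: without replicate 1 of that group the differences were 0.24 and 0.47, and without replicate 2 they were -0.38 and -0.32, with Nfic called in the former case (adjusted p = 0.0391) and Nfix in the latter (adjusted p = 0.0364).

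In atRA+PKCi, 43.2% of all genes were called in either direction between the genotypes, but none of the 4 NFI genes was called by the edgeR quasi-likelihood test. Nfix came closest, with 58.5 and 64.2 CPM in the libraries labelled Rxra cKO above 47.8 and 40.6 CPM in wild-type (log2 fold change 0.47 ± 0.17 SE, adjusted p = 0.0508). It was the only member with an unadjusted p under 0.05 and the single member that DESeq2 called (0.49, adjusted p = 0.0146), among 5834 genes. In a fit of the 4 atRA+PKCi libraries alone the adjusted p was 0.00453, and with the length factors it was 0.0458. Nfib was slightly lower in the libraries labelled Rxra cKO (log2 -0.15, adjusted p = 0.114, and -0.20 to -0.063 with single libraries left out) with no overlap, and Nfia and Nfic differed by -0.03 and 0.01 (adjusted p of 0.876 and 0.984).

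Whether the response to medium differed between genotypes was tested directly as an interaction, for which 24.6% of all genes were called and none of the NFI genes by the edgeR quasi-likelihood test. The response of Nfix in wild-type minus that in the libraries labelled Rxra cKO was -0.57 ± 0.25 SE on the log2 scale (adjusted p = 0.130), with an unadjusted p of 0.0467, and DESeq2 did not call it. Without wild-type FBS replicate 2 it was -0.85 (adjusted p = 0.0046), and over all libraries left out in turn it ranged from -0.85 to -0.23. The interaction was -0.38 ± 0.18 SE for Nfia (adjusted p = 0.162), 0.12 for Nfib (adjusted p = 0.448) and 0.02 for Nfic (adjusted p = 0.983).

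**Figure D2:**
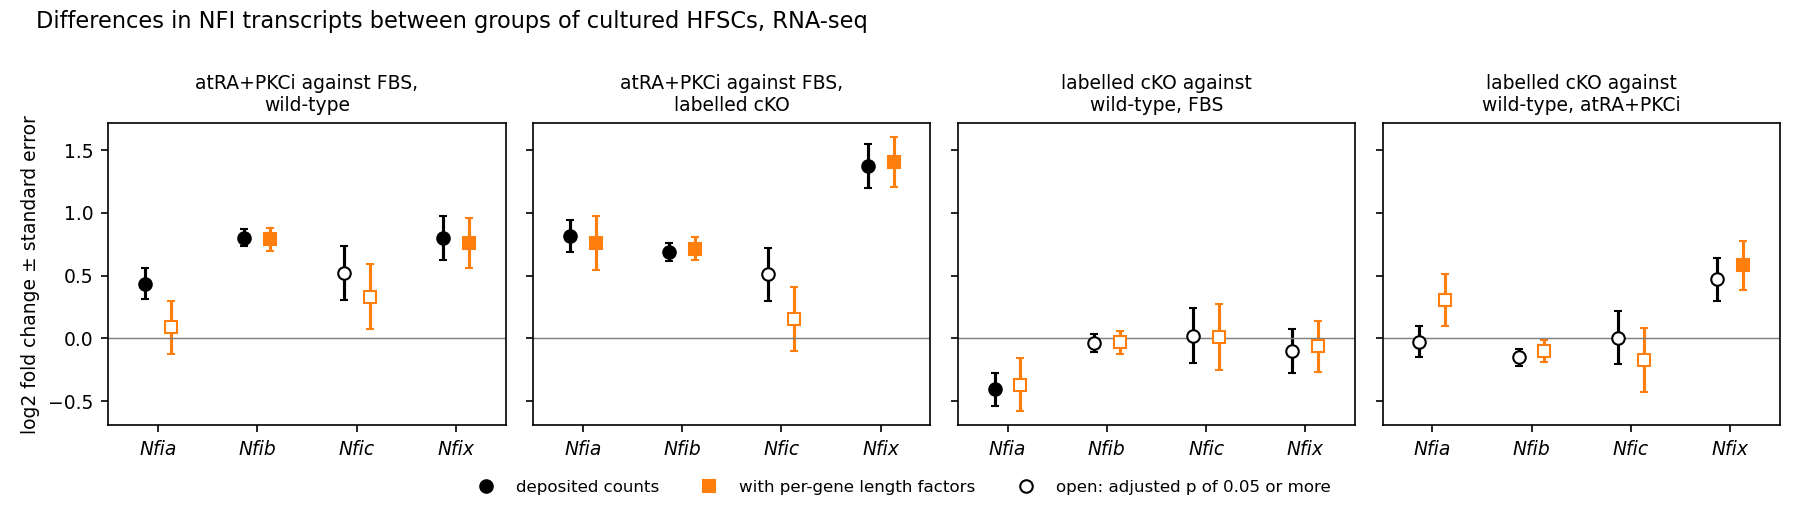
Log2 fold changes of the 4 NFI genes in the 4 comparisons of RNA-seq groups, with standard errors as bars, from the deposited counts (black circles) and with per-gene length factors (orange squares), filled where the adjusted p is under 0.05. Nfib and Nfix are filled on both scales for the medium in each genotype label, whereas Nfia in wild-type moves from 0.44 to 0.09 with the length factors.

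The balance among the members was compared as CPM per kilobase of exon, since levels of different genes are comparable only per length. In wild-type FBS the order of levels was Nfic at 3.60 ± 1.35 (SD, n = 2), Nfix at 3.44 ± 1.03, Nfib at 2.74 ± 0.119 and Nfia at 1.27 ± 0.176 CPM per kilobase, where the upper 3 did not differ beyond their spread. In wild-type atRA+PKCi, Nfix stood at 6.02 ± 0.690, Nfic at 5.20 ± 0.786, Nfib at 4.78 ± 0.254 and Nfia at 1.71 ± 0.133. In the libraries labelled Rxra cKO, Nfix rose from 3.22 ± 0.215 in FBS to 8.34 ± 0.555 in atRA+PKCi and there stood clear of Nfic at 5.22 ± 0.294 and Nfib at 4.31 ± 0.0423. Nfix accordingly made up 41.9% and 43.4% of the summed per-length level of the family in these 2 libraries, against 29.6% to 34.2% in the other 6. These levels and shares use a fixed exon length per gene. They were not corrected by the length factors, which varied between libraries for Nfia and Nfic. The summed CPM of the family was 118 and 89.7 in FBS and 180 and 158 in atRA+PKCi for wild-type, and for the label Rxra cKO 103 and 94.1 in FBS and 175 and 183 in atRA+PKCi.

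Of the genes annotated within or across the members, levels were taken for those at Nfia and Nfix only. E130114P18Rik, which overlaps Nfia, reached at most 0.0634 CPM in any library. Within Nfix, G430095P16Rik reached at most 0.348 CPM and Lyl1 at most 0.0648 CPM. G430095P16Rik was called higher in atRA+PKCi in wild-type (log2 3.02, adjusted p = 0.0278) and in the libraries labelled Rxra cKO (log2 3.86, adjusted p = 0.0204, edgeR quasi-likelihood test). Fibroblasts, the usual feeder cells, also express NFI genes. Summed over 10 fibroblast markers, the libraries held 5.60 to 15.3 CPM, with the highest sums in wild-type FBS, and in the medium comparison 1 of the 7 markers tested was called higher and 3 lower in wild-type, against none higher and 1 lower in the libraries labelled Rxra cKO, beside 27.2% higher and 26.6% lower of all genes in wild-type and 20.8% and 22.2% in the libraries labelled Rxra cKO. The part of feeder cells in the NFI levels was not tested.

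Genes linked to NFI factors in other tissues and in HFSCs were called higher and lower in shares near those of all genes in wild-type. Of 20 such genes, 13 were tested. In wild-type atRA+PKCi against FBS, 4 were higher (Insc, Bbx, Sox9 and Pparg) and 3 lower (Edn2, Cdkn1a and Klf4), beside 27.2% higher and 26.6% lower of all genes, with a median log2 change of 0.15 beside 0.03 over all genes. In the libraries labelled Rxra cKO, 4 were higher (Hes1, Insc, Cdkn1a and Gpm6b) and 2 lower (Ezh2 and Klf4), beside 20.8% and 22.2% of all genes, with a median of 0.36 beside 0.02. The interaction was called for 7 of the 13, beside 24.6% of all genes, with a higher response in wild-type for Ezh2, Sox9 and Pparg and a lower response for Edn2, Hes1, Cdkn1a and Klf4.

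Edn2 was a scarce transcript in these cultures. It measured 1.17 and 1.55 CPM in FBS and 0.674 and 0.570 CPM in atRA+PKCi for wild-type HFSCs, which is lower without overlap (log2 -1.12 ± 0.31 SE, adjusted p = 0.0143, edgeR quasi-likelihood test). The libraries labelled Rxra cKO held 1.01 and 1.23 CPM in FBS and 1.36 and 1.53 CPM in atRA+PKCi, a difference that was not called (0.36, adjusted p = 0.355). The responses differed between genotypes (interaction -1.48 ± 0.43 SE, adjusted p = 0.0352), and a link to the levels of Nfib was not tested. Insc, which orients the mitotic spindle, was listed at 0 in all 4 FBS libraries and at 4.11 and 4.40 CPM in wild-type atRA+PKCi and 1.28 and 0.969 CPM in atRA+PKCi under the label Rxra cKO.

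Transcription factors of HFSCs and of the epidermis give the setting in which the NFI genes moved. Of 10 HFSC factors tested, 6 were higher in wild-type atRA+PKCi (Sox9, Tcf7l2, Foxc1, Foxp1, Runx1 and Barx2) and 2 lower (Nfatc1 and Vdr), beside 27.2% and 26.6% of all genes, with a median of 0.30. In the libraries labelled Rxra cKO, 3 were higher (Tcf7l2, Runx1 and Barx2) and none lower, beside 20.8% and 22.2% of all genes, with a median of 0.31. Of the 11 factors of epidermis and wounds, 8 were lower in wild-type atRA+PKCi (26.6% of all genes) and 7 in the libraries labelled Rxra cKO (22.2% of all genes), and Gata3, which also serves the inner root sheath, was higher in both. Klf4, on both this list and the NFI-linked list, went from 284 and 250 CPM to 93.3 and 87.5 CPM in wild-type and from 145 and 162 CPM to 84.6 and 82.1 CPM in the libraries labelled Rxra cKO. Nfib and Nfix, like Tcf7l2, Runx1 and Barx2, were higher in atRA+PKCi under both genotype labels.

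In skin at P32, the 4 genes were followed over classes of cells that were clustered without them. After filtering and removal of doublets, 13625 cells of mouse 1 and 13608 of mouse 2 remained, in 35 clusters, and 62 cell barcodes occurred in both mice. Names with the suffix "-like" were given from marker genes only. The sort selected against CD140a (the product of Pdgfra, on fibroblasts), CD45 (immune cells), CD31 (endothelial cells) and CD117 (the product of Kit, on melanocytes among others). Even so, 4400 and 5846 cells were fibroblast-like, 247 and 440 immune-like, 76 and 134 endothelial-like and 98 and 85 melanocyte-like, and the levels of these classes are those of cells that passed the sort. The levels of skin classes are counts of unique molecular identifiers (UMIs) summed per mouse and class, as CPM scaled by TMM (trimmed mean of M-values). Whether introns were counted was not given in the sources used here, so the single-cell levels were not compared between genes.

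Nfib was highest in the outer root sheath-like class, which holds the HFSC compartment of the growing follicle. It measured 1807 and 2395 CPM there (mouse 1 and mouse 2). It stood at 887 and 1116 CPM in the hair matrix-like class, at 804 and 1077 CPM in the suprabasal epidermis-like class, at 606 and 853 CPM in the inner root sheath-like class and at 257 and 342 CPM in the hair shaft-like class. No other class with at least 50 cells per mouse reached the outer root sheath-like level in either mouse. The endothelial-like class held 1060 and 905 CPM, the fibroblast-like class 610 and 791 CPM, the mural-like class 510 and 560, the immune-like class 248 and 307, the melanocyte-like class 173 and 377 and the dermal papilla-like class 148 and 240. With stricter cell filters the melanocyte-like class held other cells, in a cluster led by muscle genes such as Tnnc2 and Acta1. It then stood at 408 and 515 CPM (unscaled), against 176 and 402 CPM (unscaled) with the main filters. The endothelial-like, hair matrix-like and suprabasal epidermis-like classes overlapped one another, as did the inner root sheath-like with the suprabasal epidermis-like and with the fibroblast-like class and as did neighbours among the classes below the mural-like class.

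Nfia had another order, led by the fibroblast-like class at 762 and 975 CPM. The endothelial-like class held 452 and 661 CPM, the suprabasal epidermis-like class 421 and 481 CPM, the mural-like class 386 and 420 CPM and the dermal papilla-like class 292 and 303 CPM. The outer root sheath-like class held 204 and 313 CPM, more than the hair matrix-like class at 99.2 and 164 CPM, the hair shaft-like class at 91.2 and 145 CPM and the inner root sheath-like class at 60.7 and 107 CPM. Mouse 2 was above mouse 1 in every one of the 11 classes, and the melanocyte-like (152 and 224 CPM) and immune-like (121 and 170 CPM) classes lay between the outer root sheath-like and hair matrix-like classes. With stricter cell filters both of these classes held other cells. The melanocyte-like cluster was then led by muscle genes. The outer root sheath-like class then included a cluster led by Grm7, Ddit4l and Fgf5, genes that led the unnamed cluster 16 with the main filters. Under those filters the melanocyte-like class lay above the outer root sheath-like class, at 260.1 and 331 against 150 and 204 CPM (unscaled). Neighbours in this order overlapped across mice, apart from the fibroblast-like with the endothelial-like, the suprabasal epidermis-like with the mural-like and the mural-like with the dermal papilla-like class. Within each mouse the order held, apart from the outer root sheath-like and dermal papilla-like classes, which changed places in mouse 2.

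Nfix stood at 506 and 514 CPM in the fibroblast-like class, 458 and 477 CPM in the suprabasal epidermis-like class and 396 and 417 CPM in the outer root sheath-like class. Without TMM scaling the fibroblast-like and suprabasal epidermis-like classes changed places, at 424 and 435 against 430 and 461 CPM. It was lower in the hair matrix-like class (263 and 234 CPM), the inner root sheath-like class (175 and 176 CPM) and the hair shaft-like class (92.6 and 83.8 CPM). The melanocyte-like class held 33.6 and 92.2 CPM. With stricter cell filters, where the cluster of that name was led by muscle genes, it held 206 and 245 CPM (unscaled). Nfic was likewise highest in the fibroblast-like class (184 and 182 CPM) and the dermal papilla-like class (149 and 145 CPM), and without TMM scaling these changed places too, at 154 and 154 against 166 and 160 CPM. It stood at 95.3 and 84.6 CPM in the outer root sheath-like class and 26.0 and 23.1 CPM in the hair shaft-like class.

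**Figure D3:**
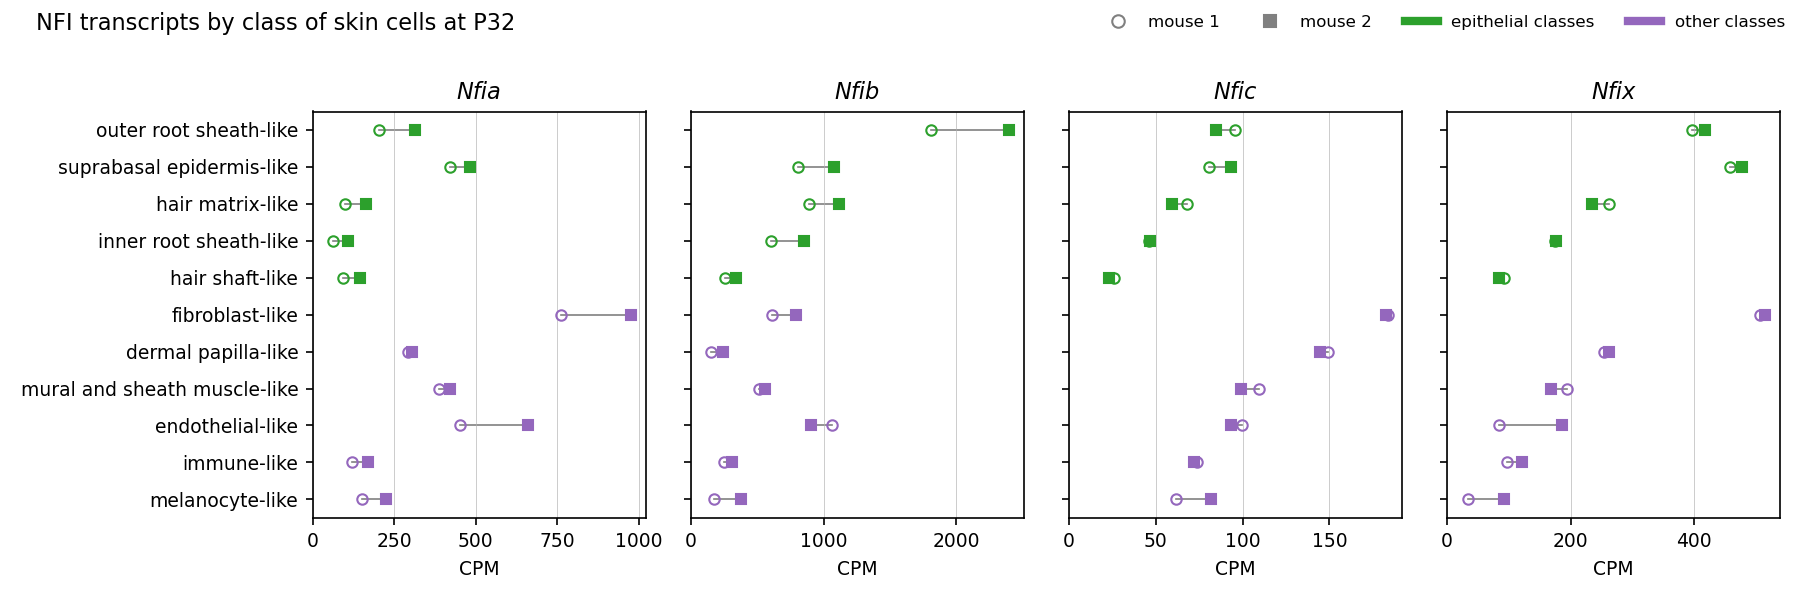
NFI transcripts in 11 classes of skin cells at P32, as TMM-scaled CPM from UMIs summed over the cells of a class, on axes that start at 0, with open circles for mouse 1, filled squares for mouse 2 and a line between the mice. Nfib peaks in the outer root sheath-like class at 1807 and 2395 CPM, whereas Nfia and, on this scale but not without TMM scaling, Nfic peak in the fibroblast-like class, and all 4 genes are lower in the hair shaft-like than in the outer root sheath-like class.

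Each epithelial class and the fibroblast-like class was tested against the outer root sheath-like class, and a gene was called where the adjusted p was below 0.01 and the log2 fold change exceeded 1 in size (edgeR quasi-likelihood test over 15563 genes). In the hair shaft-like class, Nfib was lower by a log2 fold change of -2.81, Nfix by -2.20 and Nfic by -1.87 (adjusted p of 2.49e-06, 2.01e-05 and 1.36e-07), so that 3 of 4 members were called lower, beside 13.2% of all genes. Nfia was at -1.13 with adjusted p = 0.0107, and was called with the mouse as a replicate block (adjusted p = 1.03e-05). In the inner root sheath-like class, Nfia (-1.62, adjusted p = 0.000682), Nfib (-1.53, adjusted p = 0.000868) and Nfix (-1.21, adjusted p = 0.00363) were called lower, beside 12.5% of all genes. With stricter cell filters Nfia was at -0.94, which is under the fold limit. Under those filters the class held other cells, 1384 and 756 instead of 1269 and 944, and no cluster was named hair matrix-like. The outer root sheath-like class also held other cells, 889 and 984 instead of 899 and 1068. Nfic was at -0.96 with adjusted p = 0.000117 and did not reach the fold limit.

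In the proliferative hair matrix-like class none of the 4 was called by edgeR, beside 21.9% of all genes in either direction. Here Nfib was at -1.07 (adjusted p = 0.0108), Nfia at -0.98 (adjusted p = 0.0216), Nfix at -0.71 (adjusted p = 0.0671) and Nfic at -0.50 (adjusted p = 0.0178). All 4 had an unadjusted p under 0.05, as did 7123 of all 15563 genes. DESeq2 called Nfib, among 3484 genes, and the replicate block called Nfib as well (adjusted p = 6.16e-05). In the suprabasal epidermis-like class none was called by edgeR either, beside 12.9% of all genes, with Nfib at -1.16 (adjusted p = 0.0113, and 5.13e-05 with the replicate block, where it was called), Nfia at 0.80 (adjusted p = 0.0914), Nfix at 0.20 and Nfic at -0.04. There 2 members had an unadjusted p under 0.05, as did 4673 of all 15563 genes, and DESeq2 called 1 member, among 2106 genes. With stricter cell filters Nfia (1.25) and Nfib (-1.27) were called by edgeR, but the outer root sheath-like class then held other cells. It included a cluster led by Grm7, Ddit4l and Fgf5, genes that led the unnamed cluster 16 with the main filters. Its unscaled Nfia was 150 and 204 CPM, against 191 and 310 CPM with the main filters.

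The fibroblast-like class differed from the outer root sheath-like class in opposite directions within the family. Nfia was higher by 1.75 on the log2 scale (adjusted p = 0.000215) and Nfic by 1.02 (adjusted p = 2.88e-05), while Nfib was lower at -1.58 (adjusted p = 0.000411, edgeR quasi-likelihood test). Nfix was at 0.33 (adjusted p = 0.396). Higher levels were called for 17.5% and lower levels for 11.9% of all genes in this comparison. Without the 2 fibroblast-like clusters that came mostly from 1 mouse, Nfic stood at 0.99975, just under the fold limit. Transcripts of the fibroblast markers were also found in the epithelial classes, at 2043 to 5915 CPM in sum against 61889 and 70193 CPM in the fibroblast-like class, and their part in the epithelial levels of Nfia and Nfic was not tested.

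Edn2 measured 87.1 and 83.9 CPM in the outer root sheath-like class, the class with most Nfib, and at most 4.54 CPM in every other of the 11 classes. Sox9, at 327 and 273 CPM in the outer root sheath-like class, stood at 160 and 132 CPM in the suprabasal epidermis-like class and at most 17.3 CPM elsewhere.

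Within classes, single clusters differed in their NFI levels, given here as unscaled CPM. Among the 3 outer root sheath-like clusters, cluster 31 held 2567 and 3240 CPM of Nfib, cluster 8 held 1833 and 2511 CPM and cluster 20 held 1041 and 1516 CPM. Among the 3 hair matrix-like clusters, cluster 23, which expresses Edar and Shh, held 2304 and 2605 CPM of Nfib, above cluster 6 at 993 and 1119 CPM and cluster 3 at 698 and 849 CPM. The same cluster 23 held more Nfia (330 and 397 CPM) than cluster 3 (79.9 and 132 CPM) but less Nfic (41.0 and 43.5 CPM) than cluster 3 (57.9 and 62.6 CPM). The 8 fibroblast-like clusters ranged from 298 to 1032 CPM of Nfib as the mean of 2 mice. By that mean, cluster 9 led them for Nfia (820 and 1147 CPM), Nfib (804 and 1261 CPM) and Nfix (615 and 647 CPM). In mouse 1 alone, cluster 2 held slightly more Nfia, at 823 CPM.

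Over the 35 clusters, the members fell into different patterns. The Pearson correlation of log2(CPM + 1), a description over clusters that share mice and libraries, was 0.820 between Nfia and Nfic, 0.706 between Nfic and Nfix, 0.655 between Nfia and Nfix and 0.451 between Nfib and Nfix. Nfib was near 0 with Nfia (0.0835) and Nfic (0.00731). Among 8910 genes compared, the patterns most like Nfib were those of Col4a5 (0.790), Galnt18, Col4a6, Golim4 and Irx4 (0.706), where Col4a5 and Col4a6 encode chains of basement membrane collagen. Those most like Nfia were Pam (0.889), Ctdsp2, Zbtb20, Afap1 and Ehd2 (0.858), and those most like Nfic were Ctdsp2 (0.890), Arhgef40, Acadsb, Slc39a13 and Zbtb20 (0.867). Those most like Nfix were Twsg1 (0.738), Fgfr1, Rbms3, Nfic (0.706) and Pls3 (0.686), lower values than the leaders for Nfia and Nfic.

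**Figure D4:**
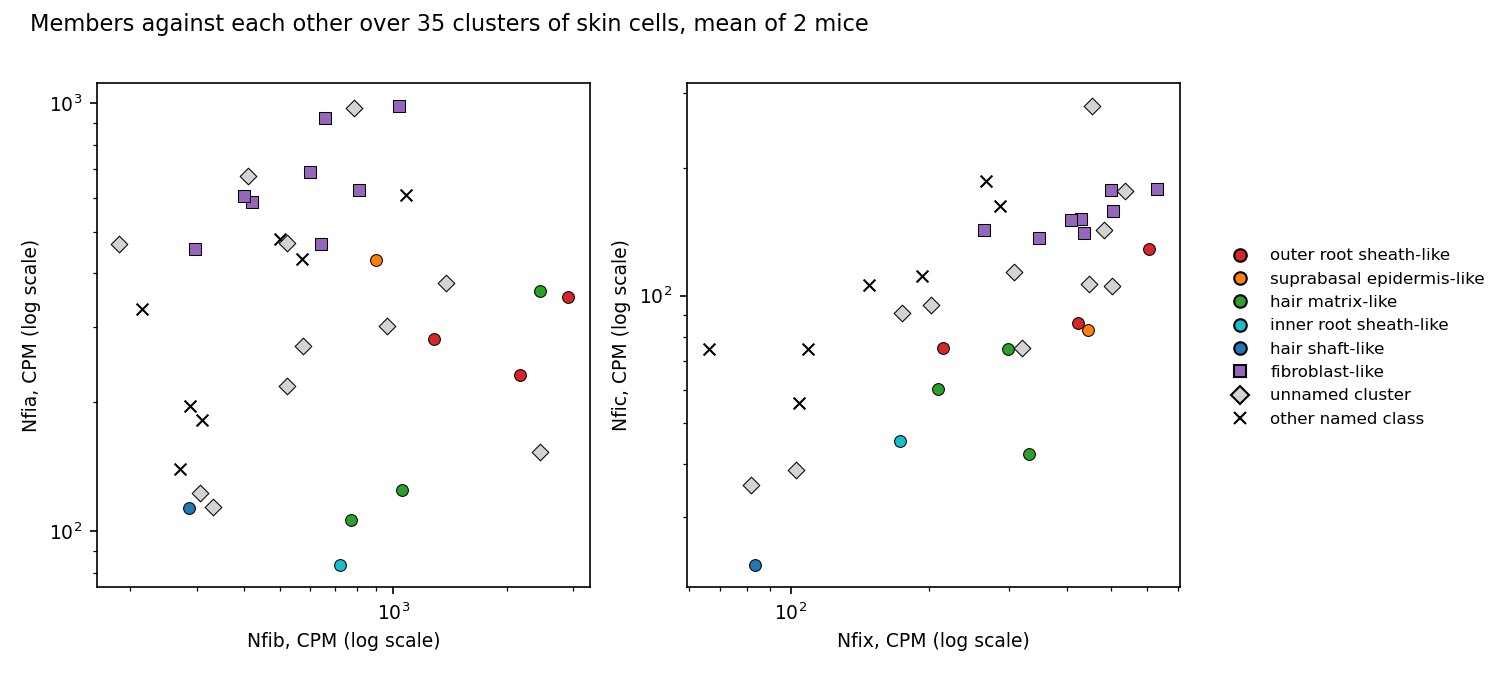
Unscaled CPM of Nfia against Nfib (left) and of Nfic against Nfix (right) over 35 clusters of skin cells, on log axes, each point being the mean of 2 mice for a cluster and coloured by class. Nfia and Nfib show no common trend (Pearson correlation 0.0835), with outer root sheath-like clusters to the right and fibroblast-like clusters at the top, while Nfic and Nfix rise together (0.706).

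Cultured cells of the same mice were few. The matrices held 449 and 208 barcodes with a median of 22215 and 11475 UMIs, of which 222 and 78 carried a single hashtag and passed the filter on mitochondrial UMIs. These comprised 113 and 13 cells with BMP, 92 and 27 with Rspo+BMP, 5 and 21 with Rspo+BMP and an inhibitor of retinoic acid receptors (RARi), 5 and 10 with B-27 alone, 5 and 6 with Rspo and 2 and 1 with atRA+PKCi, and no cell of the FBS condition. According to the study, the cultures given Rspo, BMP or RARi also received atRA+PKCi, so that BMP and atRA+PKCi cannot be told apart in a comparison with B-27 alone. BMP stands for bone morphogenetic protein, with the protein not named in the hashtag list, and Rspo is R-spondin, which amplifies WNT signals.

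In the 3 comparisons that were made between conditions, no NFI difference was called, and the Rspo, atRA+PKCi and FBS conditions entered none of them as such. Levels of cultured cells are given as CPM without TMM scaling. In cells with BMP, Nfib measured 116 CPM in mouse 1 (430 UMIs, exact 95% Poisson interval 106 to 128 CPM, counting error only) and 186 CPM in mouse 2 (95 UMIs, 151 to 227 CPM). In cells with B-27 alone it measured 238 and 150 CPM from 45 and 33 UMIs, and the conditions overlapped. BMP against B-27 gave log2 differences of -0.90 for Nfia (adjusted p = 0.324), -0.26 for Nfib (adjusted p = 0.747), 0.42 for Nfic (adjusted p = 0.713) and 0.19 for Nfix (adjusted p = 0.843, edgeR quasi-likelihood test), beside 5.71% of 6265 genes called in either direction.

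With Rspo added to BMP, Nfib measured 122 and 125 CPM, against 116 and 186 CPM with BMP alone. Nfix measured 82.9 and 94.1 CPM, against 79.3 and 112 CPM with BMP alone. In the edgeR test no gene at all was called for this addition (44 genes had an unadjusted p under 0.05, and DESeq2 called none), and the members differed by -0.01 for Nfia, -0.30 for Nfib, -0.45 for Nfic and -0.13 for Nfix. With RARi on top, Nfia measured 426 CPM in the 5 cells of mouse 1 and 83.0 CPM in the 21 cells of mouse 2, against 101 and 89.9 CPM without RARi, so that the mice went apart, by less with TMM scaling (334 and 87.7 CPM; log2 0.92 ± 0.55 SE, adjusted p = 0.959). The other members differed by -0.04 (Nfib), -0.71 (Nfic) and -0.33 (Nfix), and again no gene was called by edgeR (232 with an unadjusted p under 0.05, and none by DESeq2). In each of the 3 comparisons, 0 of 4 members had an unadjusted p under 0.05 and DESeq2 called none. All but 2 of the sums came from 5 to 27 cells.

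**Figure D5:**
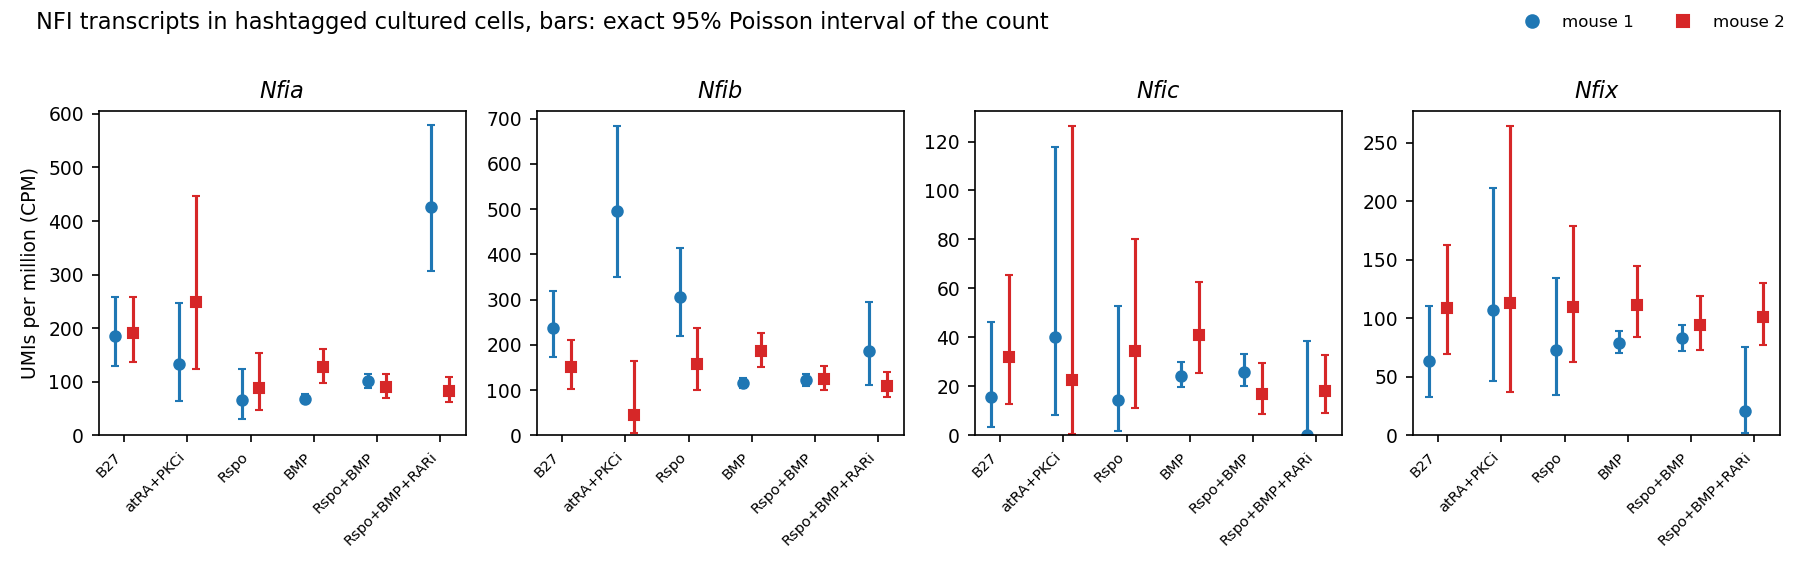
NFI transcripts in hashtagged cultured cells of 6 conditions, as unscaled CPM from UMIs summed over cells, on axes that start at 0, with blue circles for mouse 1, red squares for mouse 2 and bars for the exact 95% Poisson interval of the count. The intervals are narrow for BMP and Rspo+BMP in mouse 1 (113 and 92 cells), and the mice lie far apart for Nfib with atRA+PKCi (496 and 45.3 CPM, from 2 cells and 1 cell) and for Nfia with RARi (426 and 83.0 CPM).

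Set beside the outer root sheath-like cells of the same mouse, the cultured cells held less of each member in the conditions with most cells. With BMP, unscaled Nfib was at 116 and 186 CPM beside 1691 and 2369 CPM in the outer root sheath-like class, which is 14.5-fold and 12.7-fold higher in the skin. With Rspo+BMP the ratio was 13.8 and 18.9. The study reports that cells given Rspo and BMP came to match the main lineages of the mature follicle. In skin, unscaled Nfib was at 571.3 and 875.5 CPM in the inner root sheath-like class and at 233.5 and 338 CPM in the hair shaft-like class. The ratios with BMP were smaller for the other members, at 4.68 and 3.70 for Nfix, 3.66 and 2.04 for Nfic and 2.80 and 2.43 for Nfia. Culture and skin were prepared as separate libraries, so preparation, origin and stage of differentiation cannot be told apart, and the difference was not tested. With TMM scaling, fibroblast markers summed to at most 14.9 CPM in the cultured conditions with at least 5 cells per mouse. Col1a1 was at 0 UMIs in each of these sums.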

How the data were processed

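RNA was measured by RNA-seq in 8 cultures of HFSCs and by scRNA-seq in skin and cultured cells of 2 mice; ATAC-seq and CUT&RUN samples were not analysed here. The authors made the deposited estimated counts per gene with Salmon 1.4.0 (mm10) and tximport, and a deposited table of normalized counts (unit signal, corrected for library size and transcript length) with DESeq2. The deposited UMI counts came from Cell Ranger (7.0.1 per the submitters' processing notes, 7.0.0 in the matrix header).

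Estimated counts were rounded, filtered by filterByExpr and tested with edgeR 4.0.16 (R 4.3.3; TMM, quasi-likelihood, Benjamini-Hochberg over 15965 genes, adjusted p under 0.05, all 8 libraries in 1 fit). Skin cells with at least 500 genes, 1000 UMIs and under 10% mitochondrial UMIs were kept, doublets were removed with Scrublet (833 and 307 cells), and clusters were made in scanpy 1.11.5 from 2000 variable genes, none an NFI gene (30 components, Leiden resolution 1). A cluster took the name of its best-scoring marker list at a score of 1 or more. At least 3 markers had to be detected in 10% or more of the cells. The 10 leading genes could hold no more markers of another list than of that list. Where they held none of that list, its score had to lead the next by 0.5, and clusters of low UMI counts stayed unnamed. A name other than an epithelial one also required Krt5 and Krt14 to sum to under 500 CPM. UMI sums per mouse and class (50 cells or more) or culture condition (5 cells or more, hashtags called by HTODemux in Seurat 5.3.0 at the 0.99 quantile) were tested with edgeR, and called where the adjusted p was below 0.01 and the log2 fold change exceeded 1 in size. Scripts were tested on simulated data.

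DESeq2 1.42.0, other filters, each library left out, replicate blocks and limma 3.58.1 on the authors' normalized counts (pseudocount 1 or 10) were alternatives, and the length offsets, the limma fits and the leaving out of clusters with over 85% of cells from 1 mouse were chosen after seeing the data. Same-numbered cultures of a genotype share a mouse by the labels, as do same-numbered sums in skin and in culture. Deviations of same-numbered libraries from their group means correlated at 0.0557 in wild-type and -0.0246 in the libraries labelled Rxra cKO, and at a median of 0.152 over 55 pairs of skin classes. The named genes were the 4 members, Rxra, members of the gene lists that passed in the comparison spoken of, and the 5 genes most correlated with each member over clusters among genes of at least 50 CPM in a cluster. The members and lists were chosen with earlier results of these data known.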

Additional observations from a re-analysis of the deposited data

Results flagged for a closer look

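Some clusters of skin cells were left unnamed by the rule on marker lists and entered no comparison. Those given here exceeded every named class with at least 50 cells per mouse, in both mice, in the unscaled level of an NFI gene. Cluster 26, led by the muscle genes Pax7 and Myog, held 796 and 1152 CPM of Nfia and 308 and 252 CPM of Nfic. Cluster 16, led by Grm7, Fgf5, Lgr5 and Vdr, held 2196 and 2719 CPM of Nfib, where the outer root sheath-like class held 1691 and 2369 CPM. Its own best-scoring list was that of the outer root sheath, at a score of 0.81, under the minimum of 1 for a name. Cluster 21, led by Stmn2, Col11a1, Acan and Ednrb, held 175 and 177 CPM of Nfic and 529 and 543 CPM of Nfix, whereas the smaller Schwann-like class (28 and 60 cells) held 171 and 201 CPM of Nfic. Nfix was also high in cluster 24, led by Il17b, Lama1 and Cnn1 (505 and 501 CPM), and in cluster 5, led by Adamts16, Limch1 and Pi16 (451 and 514 CPM). Cluster 5 came mostly from mouse 1, with 1458 and 118 cells.

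Hashtagged cells in conditions that entered no comparison also held UMIs of NFI genes. The conditions of a mouse were pooled in 1 well, and the part of free RNA from other conditions was not tested. The 3 cells tagged atRA+PKCi held 21 UMIs of Nfia, 39 of Nfib, 4 of Nfic and 13 of Nfix over both mice. The 11 cells tagged Rspo held 22 UMIs of Nfia, 65 of Nfib, 7 of Nfic and 26 of Nfix.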

How the results depend on the processing

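Of 288 alternative values for RNA-seq, 231 stayed alike, as did 118 of 140 for skin cells and 89 of 95 for cultured cells. For a value with a test, alike means the same direction and side of the threshold. For a value without a test, it means a move of less than the spread between replicates. Why the other values changed was not tested. In skin and culture, values with a mouse left out had no test, and their spread was set by the same 2 values. Most such values therefore counted as alike, even where the sign changed, as for Nfia with Rspo (-0.56 and 0.53). The counts for skin and cultured cells thus say little about likeness between the mice. Limits are set by 2 mice per group, by FBS cultures of wild-type mice that differed in Nfic and Nfix, and in culture by few cells.

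For the medium, Nfia in wild-type was 0.088 with length offsets and 0.11 or 0.10 with limma (pseudocount 1 or 10), none called. Nfic was called in wild-type with DESeq2 (0.50), with no filter on low counts (0.50) and with the replicate block (0.56), and in the libraries labelled Rxra cKO with DESeq2 (0.52), no filter (0.51), the replicate block (0.51) and a fit of 4 libraries (0.51). Between genotypes in FBS, Nfia lost its call with DESeq2 (-0.41), 4 libraries (-0.40), length offsets (-0.37) and limma (-0.34 and -0.33). In atRA+PKCi, Nfix was called with DESeq2 (0.49), no filter (0.47), 4 libraries (0.47), length offsets (0.58) and limma with pseudocount 10 (0.58), and Nfix passed the interaction with no filter (-0.59). Uncalled values that changed sign were Nfia in atRA+PKCi (0.31 with length offsets, 0.31 and 0.30 with limma), Nfic in atRA+PKCi (-0.17, -0.16 and -0.15) and the interaction of Nfic (-0.013 with DESeq2 and -0.0023 with no filter).

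With single libraries left out, the medium effect in wild-type ranged from 0.30 to 0.58 for Nfia and 0.18 to 0.97 for Nfic, and in the libraries labelled Rxra cKO from 0.42 to 0.62 for Nfic. The genotype effect in FBS ranged from -0.54 to -0.26 for Nfia, -0.085 to 0.012 for Nfib, -0.32 to 0.47 for Nfic and -0.38 to 0.24 for Nfix. In atRA+PKCi it ranged from -0.10 to 0.086 for Nfia, -0.14 to 0.20 for Nfic and 0.36 to 0.62 for Nfix, and from -0.20 to -0.063 for Nfib. The interaction ranged from -0.53 to -0.23 for Nfia, 0.016 to 0.17 for Nfib, -0.32 to 0.46 for Nfic and -0.85 to -0.23 for Nfix. Genes called ranged from 4543 to 7614 for the medium in the libraries labelled Rxra cKO and from 2392 to 4335 for the interaction.

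In skin, a threshold of adjusted p under 0.05 without a fold limit called 5959 genes in the hair matrix-like class, including Nfia (-0.98), Nfib (-1.07) and Nfic (-0.50). It called 5695 in the inner root sheath-like class, including Nfic (-0.96), 5417 in the hair shaft-like class, including Nfia (-1.13), 3214 in the suprabasal epidermis-like class, including Nfib (-1.16), and 7048 in the fibroblast-like class. DESeq2 called Nfib in the hair matrix-like (-1.09) and suprabasal epidermis-like (-1.12) classes, Nfic in the inner root sheath-like class (-1.01) and Nfia in the hair shaft-like class (-1.16), and gave 9.71e-05 for Nfic in the suprabasal epidermis-like class. The replicate block called Nfib in the hair matrix-like (-1.06) and suprabasal epidermis-like (-1.16) classes and Nfia in the hair shaft-like class (-1.13), and changed no other call in skin, culture or RNA-seq beside those of Nfic. No filter on low counts called Nfia in the hair shaft-like (-1.07) and Nfib in the suprabasal epidermis-like class (-1.16). Stricter cell filters changed the cells of the outer root sheath-like class, and no cluster was named hair matrix-like, so that comparison has no value. These filters lost the call of Nfia in the inner root sheath-like class (-0.94). In the suprabasal epidermis-like class they gained calls of 1.25 for Nfia and -1.27 for Nfib. Leaving out the clusters mostly of 1 mouse gave 0.99975 for Nfic in the fibroblast-like class. With 1 mouse left out, Nfic in the hair shaft-like class ranged from -1.88 to -1.87.

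In culture, BMP against B-27 gave 615 genes with hashtags called by share and 650 at an adjusted p under 0.05, and no filter on low counts gave 8 genes for Rspo and 7 for RARi. Nfia with Rspo was 0.015 with no filter and 0.14 with no mitochondrial limit, and Nfib with RARi was 0.021 with DESeq2 and 0.35 with no mitochondrial limit. With 1 mouse left out, Nfic ranged from 0.28 to 0.91 for BMP against B-27 and Nfix from -2.54 to 0.20 for RARi. Values also changed sign between mice for Nfib (-0.74 to 0.22) and Nfix (-0.053 to 0.62) with BMP against B-27, for Nfia (-0.56 to 0.53), Nfib (-0.63 to 0.041), Nfic (-1.35 to 0.067) and Nfix (-0.31 to 0.032) with Rspo, for Nfia (-0.017 to 1.53) and Nfib (-0.092 to 0.069) with RARi and, in skin, for Nfic in the suprabasal epidermis-like class (-0.24 to 0.14), and Nfic with RARi has no value in mouse 1, where it had 0 UMIs.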
